A study of Mus musculus with 24 samples.

Results

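A set of 34 protein-coding genes of the mouse was all but silent at the late 2-cell stage (L2C) and abundant at the morula stage in wild-type embryos. Members were chosen by their level in the wild-type libraries alone, as genes with a mean under 0.5 CPM at L2C and a mean of 20 CPM or more at morula. Of 21974 protein-coding genes among the 55471 genes counted, 8466 met the first level, 4986 met the second and 37 met both. CPM is a gene's count as a share of all counts of its library, scaled to a total of 1000000. Leaving out 3 genes whose symbols start with Serpinb gave the 34 members. The wild-type stage difference is therefore what defines the set and is not a finding. The question was how far the same genes came on in morulae that had lost Ttf1 or Zfp622.

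The data are messenger RNA sequencing libraries, each made from 10 pooled embryos of parents of the hybrid strain B6D2F1. They form 6 groups of 4 libraries: wild type, Ttf1 knockout and Zfp622 knockout, each at L2C and at morula. Zygotes came from superovulated B6D2F1 females of 3 to 4 weeks mated with males of that strain, and all embryos were cultured in KSOM medium. For each knockout, Cas9 protein at 100 ng per microlitre and 3 guide RNAs at 50 ng per microlitre each were injected into the zygote. The labels do not say whether wild-type zygotes were injected or how many embryos carried an edit, so a knockout library is an average over the edits of its pool. Nothing in the labels says that the 4 pools of a group came from separate matings, and p-values measure the spread between these pools. Levels below are CPM over the total of each library with SD over 4 libraries, and log2 fold changes are from edgeR after scaling by the trimmed mean of M values (TMM).

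The mouse embryo starts broad transcription of its own genome around the late 2-cell stage, while most of the messages left by the egg are being cleared. By the morula stage the blastomeres flatten against each other, form gap and tight junctions and begin to separate an outer layer, the future trophectoderm, from inner cells. Genes that first come on in this window include parts of the epithelial machinery of the outer cells and genes of single lineages. Ttf1 encodes a factor that ends transcription by RNA polymerase I, and the yeast homologue of Zfp622 acts late in the maturation of the large ribosomal subunit.

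The libraries matched their stage labels. The summed level of 7 transcripts typical of the 2-cell stage was 1078.0 to 1692.4 CPM in wild-type L2C libraries and 7.37 to 31.1 at wild-type morula. Both targeted transcripts were lower in their own knockout: Ttf1 stood at 25 ± 1.48 CPM in Ttf1 knockout morulae against 43.1 ± 1.82 in wild type, and Zfp622 at 15.3 ± 6.36 in Zfp622 knockout morulae against 52.0 ± 4.87. Morula libraries held 12690369 to 17807596 counts and L2C libraries 10538723 to 13528954. The alignment names give 1 sequencing lane for the Ttf1 knockout and another for wild type and the Zfp622 knockout, so lane and the Ttf1 contrast cannot be told apart. Among morula libraries, a second index number stands in these names for wild-type libraries 3 and 4 alone.

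All 34 genes came on in both knockouts. Within each knockout's own libraries, none of which the choice of members used, 34 of 34 rose from L2C to morula in the Ttf1 knockout, where 38.1% of 18864 genes tested rose, and 34 of 34 in the Zfp622 knockout, where 38.2% rose. At L2C the 34 genes together gave 110 to 149 counts per Ttf1 knockout library, 92 to 166 per Zfp622 knockout library and 86 to 111 per wild-type library. At morula their summed level was 1903.2 to 2332.1 CPM in the Ttf1 knockout and 1943.9 to 2462.4 in the Zfp622 knockout, ranges that overlap with 2098.0 to 2286.6 in wild type. The sum is carried by a few genes: Vnn1 alone made up 363.3 to 444.3 CPM of it in wild type and rose in both knockouts. The typical member stood lower: its mean was 74.5% of the wild-type mean in the Ttf1 knockout (median over members, range 18.9% to 164.0%) and 80.4% in the Zfp622 knockout (range 22% to 185.0%). The wild-type morula libraries that set these percentages also chose the members, which favours lower values in a knockout. The percentages are therefore descriptions and no evidence of a fall.

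Against wild-type morulae, 15 of the 34 genes (44.1%) passed the test as lower in the Ttf1 knockout and 2 (5.88%) as higher, and 17 did not pass. Over all 14865 genes tested, 17.9% were lower and 21.3% higher. Among the 4986 protein-coding genes with at least 20 CPM in wild-type morula, a level that the members also had to reach, 35.5% were lower and 16% higher. In the Zfp622 knockout 11 of 34 (32.4%) were lower and 3 (8.82%) higher, and 20 did not pass. There the share over all genes was 13.5% lower and 15.6% higher, and among the coding genes at 20 CPM or more 28.3% lower and 11.2% higher. The median log2 fold change of the members was -0.405 in the Ttf1 knockout and -0.331 in the Zfp622 knockout, beside 0.037 and 0.027 over all genes. The median of the coding genes at 20 CPM or more, which were more often lower than higher, is not given here. The medians of the members are therefore not read as particular to them. The wild-type morula libraries that chose the members for a high level are also the controls here, which favours lower values in a knockout, so these shares are read against those of the other genes at 20 CPM or more and are no independent evidence of a fall. Both comparisons share those 4 control libraries.

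**Figure D1:**
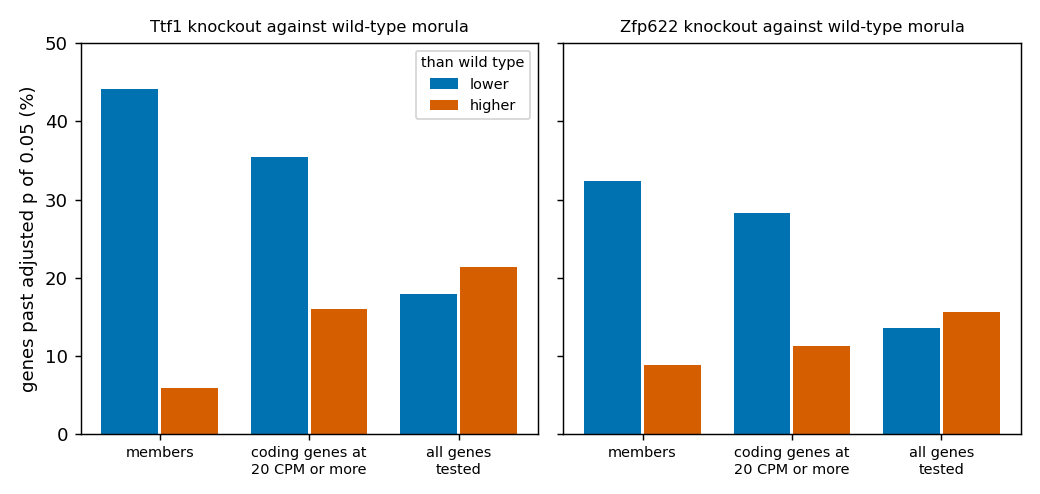
Percentage of genes past an adjusted p of 0.05 in edgeR (vertical axis) as lower or higher than wild-type morula, for the 34 members, for all 4986 protein-coding genes at 20 CPM or more in wild-type morula and for all 14865 genes tested, with 4 libraries a group. In the Ttf1 knockout 44.1% of members and 35.5% of the coding genes at that level were lower, and in the Zfp622 knockout 32.4% and 28.3%.

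Libraries of a group that do not overlap with wild type gave a similar count: 11 members were lower and 2 higher in every Ttf1 knockout library, where 17.9% and 18.5% of all genes did so, and 12 were lower and 2 higher in every Zfp622 knockout library, where 14.2% and 16.7% did so. The share of coding genes at 20 CPM or more is not given for this measure, so no excess of the members is read from it. Without the wild-type libraries that carry a second index number the Ttf1 knockout had 13 members lower and 2 higher, while the Zfp622 knockout had 6 lower (the calls of BC048679, S100a11, Pdzd3, Hist1h2ae and Vangl1 were lost) and 1 higher (those of Vnn1 and S100a10 were lost). Other measures moved with the knockouts. Mitochondrial genes took 2.24% to 2.45% of the counts in wild-type morula libraries, 3.14% to 3.76% in Ttf1 and 2.79% to 3.69% in Zfp622 knockout libraries. The 7 transcripts of the 2-cell stage summed to 26.3 to 165.1 CPM and 43.8 to 62.3 in the knockout morulae, and 8 oocyte transcripts to 27.8 to 31.7 and 23.4 to 38.1 against 11.4 to 16.2 in wild type, with no gene of either list under 0.1 CPM in any morula group. The summed level of 21 lineage markers of the embryo was 825.0 to 1069.6 and 861.4 to 1340.0 CPM against 1697.3 to 1870.8. Much of that difference was Nanog, a pluripotency factor (188.7 ± 87.8 and 336.1 ± 114 CPM against 619.1 ± 30.5), with Elf3, Fabp3 and Krt8. Not all pluripotency markers of the list fell. The mean of Pou5f1 differed from that of wild type by less than the wild-type SD in both knockouts. Esrrb had a higher mean in the Ttf1 and a lower mean in the Zfp622 knockout, and the means of Klf4 and Sox2 were lower in both. Krt8 was at 70.8 ± 8.26 and 100.2 ± 34.2 CPM against 148.2 ± 16.2. Gata3 was at 43.7 ± 10.9 and 44.7 ± 6.86 against 65.8 ± 2.75. The means of Krt18, Tfap2c, Cdx2 and Eomes were also lower in both knockouts. Gata6 was at 95.8 ± 12.2 and 84.6 ± 9.36 against 87.8 ± 6.44. Tspan8 was higher in both, at 22.3 ± 2.08 and 13.8 ± 1.07 against 8.59 ± 2.38, as were Sox17 and Sox7, which were barely detected. Markers of blood cells (12 genes) summed to 21.1 to 36.8 and 27.3 to 37.0 CPM against 9.78 to 14. Most of it came from Cd68 (18.1 and 24 against 9.6), a lysosomal protein of macrophages. Hba-a1 was next and also higher, at 6.63 ± 1.56 and 5.68 ± 2.98 CPM against 1.61 ± 0.503. Ptprc, Tyrobp and Fcer1g were under 0.1 CPM in all 3 morula groups. Markers of cumulus cells and of sperm did not sum above 2.68 CPM in any morula library. The part of these measures in the members' differences was not tested. In pooled embryos, fewer cells of a type and less RNA per cell cannot be told apart.

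**Figure D2:**
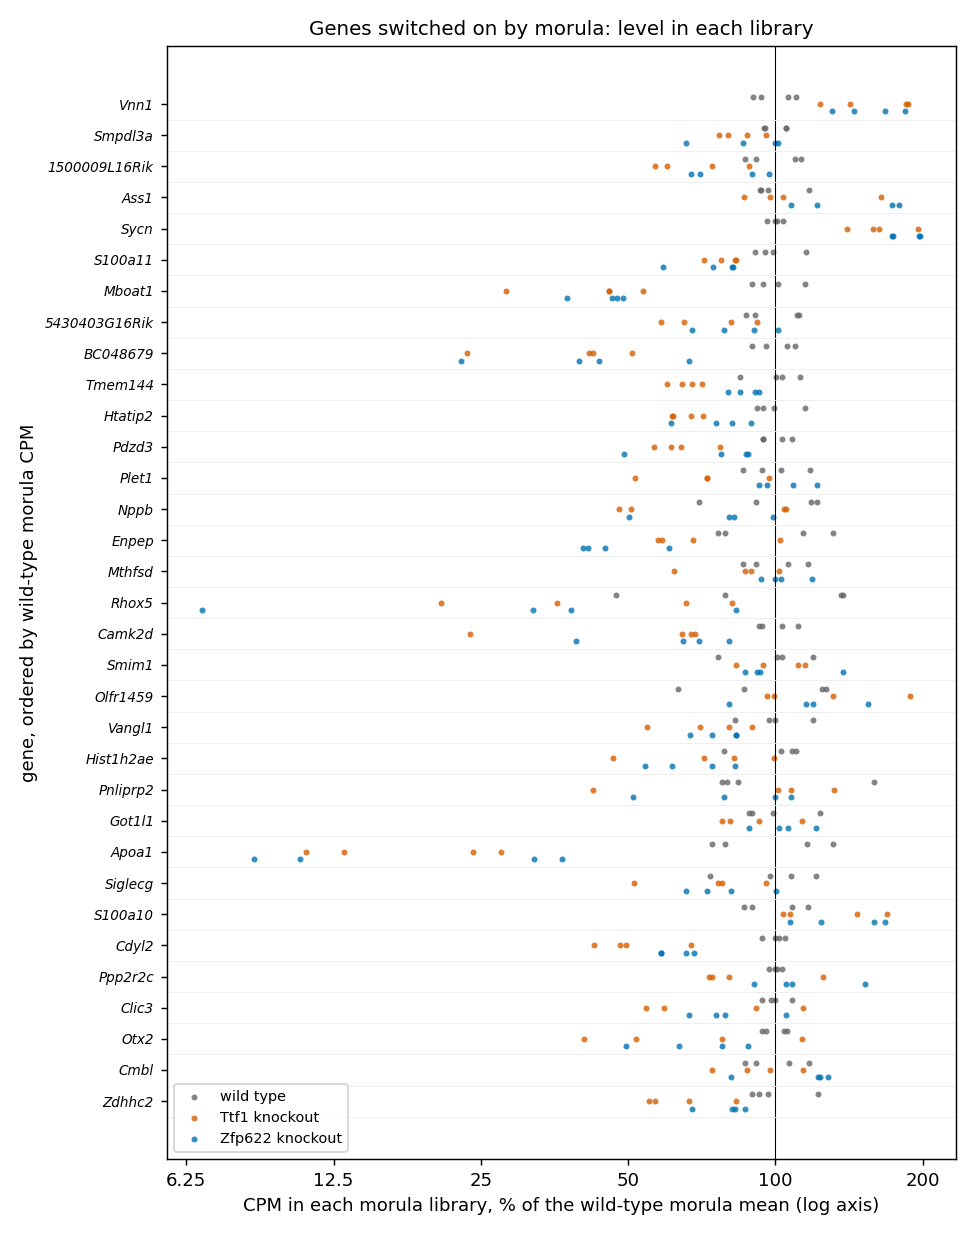
CPM of 33 of the 34 genes in each morula library, as a percentage of the gene's wild-type mean (horizontal log axis), with genes ordered by wild-type level (vertical axis) and 1 point per library, 4 per group. Apoa1, BC048679, Mboat1 and Cdyl2 lie left of all wild-type points in both knockouts, Vnn1 and Sycn lie right of them, and Rhox5 is spread widely in all groups.

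Proteins of the cell surface, of junctions and of membranes made up 9 of the 34, a grouping made for this description with the values known. Of these, 5 fell in the Ttf1 knockout and 4 in the Zfp622 knockout, and none rose, counts to be read against the 35.5% and 28.3% lower among coding genes at 20 CPM or more. Enpep, the aminopeptidase A of the cell surface that trims angiotensin, stood at 44.7, 51.4, 30.0 and 31.0 CPM in wild type, 26.6, 22.6, 23.0 and 40.1 in Ttf1 knockout libraries and 17.6, 15.9, 23.8 and 16.3 in Zfp622 knockout libraries. All Zfp622 knockout libraries were under all wild-type libraries, while Ttf1 knockout library 4 was above wild-type libraries 3 and 4, the pair with the second index number. Enpep fell by 1.11 in the Zfp622 knockout (SE 0.21, adjusted p = 0.00187), and its log2 fold change in the Ttf1 knockout was -0.46 (adjusted p = 0.0888). Tmem144, a transmembrane protein gene, showed the opposite order of the knockouts: 56.6, 50.5, 51.9 and 42.6 CPM in wild type, 34.0, 32.4, 30.3 and 35.7 in Ttf1 knockout libraries and 45.8, 40.4, 42.6 and 46.7 in Zfp622 knockout libraries. The Ttf1 knockout libraries were lowest without overlap with either other group. Tmem144 fell by 0.59 in the Ttf1 knockout (SE 0.10, adjusted p = 0.000195), and its value in the Zfp622 knockout was -0.21 (adjusted p = 0.1).

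Plet1, a surface protein of trophoblast, stood at 48.5, 42.3, 38.7 and 35.4 CPM in wild type and at 39.9, 29.9, 21.3 and 29.8 in the Ttf1 knockout, with overlap, and fell by 0.43 (adjusted p = 0.0255). The call was lost without wild-type library 1 or without Ttf1 knockout library 3. In the Zfp622 knockout Plet1 stood at 43.1 ± 5.52 CPM against 41.2 ± 5.59 in wild type (log2 fold change 0.05, adjusted p = 0.832). Pdzd3, a PDZ scaffold protein, fell by 0.61 in the Ttf1 knockout (27.1 ± 3.71 against 41.9 ± 2.8 CPM, adjusted p = 0.00425) and by 0.43 in the Zfp622 knockout (31.5 ± 7.65, adjusted p = 0.0407). Vangl1, a membrane protein of planar cell polarity, fell by 0.42 and fell by 0.39 (adjusted p = 0.0219 and 0.041), with libraries that overlap with wild type in both. In the Zfp622 knockout the calls of Pdzd3 and Vangl1 were lost in 11 and 9 of 21 alternatives. Clic3, a chloride intracellular channel protein, Siglecg, a sialic acid-binding lectin, and Smim1, the carrier of the Vel blood group in human, did not pass in either knockout, with means of 17.6 and 18, 19.4 and 20.6, and 34.0 and 34.5 CPM in the Ttf1 and Zfp622 knockouts against 22.1, 25.7 and 33.7 in wild type. Clic3 and Smim1 each overlap another gene on the opposite strand (Paxx and Lrrc47, at 2.35 and 4.63 CPM in wild-type morula), and counting without strand cannot tell their reads apart.

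Secreted or membrane-anchored proteins and enzymes were 6 of the members, and they held both directions. Apoa1 (ENSMUSG00000032083, chromosome 9, 46228580 to 46230466, plus strand, build GRCm38), the main apolipoprotein of high-density lipoprotein, was the member that reached the smallest share of its wild-type level. It was at 33.9, 30.0, 20.4 and 19.2 CPM in wild type, 7.11, 3.40, 2.84 and 6.24 in Ttf1 knockout libraries and 9.49, 2.23, 8.31 and 2.76 in Zfp622 knockout libraries. Every knockout library was under 10 CPM, and the higher wild-type pair was libraries 1 and 2. Apoa1 fell by 2.38 (SE 0.45, adjusted p = 0.0018) and fell by 2.19 (SE 0.44, adjusted p = 0.00426) on the log2 scale in the Ttf1 and Zfp622 knockouts, to 18.9% and 22% of the wild-type mean, and kept both calls in all 21 alternatives.

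Sycn (ENSMUSG00000084174, chromosome 7, 28540885 to 28542209, plus strand), the syncollin of pancreatic zymogen granules, had the highest wild-type morula level per length of the set, 198.0 CPM per kb of exon. It stood at 105.8, 113.8, 110.8 and 109.8 CPM in wild type, 154.0, 173.8, 214.8 and 178.8 in Ttf1 knockout libraries and 215.8, 190.5, 216.8 and 190.9 in Zfp622 knockout libraries. All 8 knockout libraries were above all wild-type libraries. Sycn rose by 0.74 (SE 0.09, adjusted p = 2.45e-05) and 0.87 (SE 0.09, adjusted p = 2.04e-05). It lies in a region also covered by Samd4b on the opposite strand, at 13.2 CPM in wild-type morula. Vnn1 (ENSMUSG00000037440, chromosome 10, 23894688 to 23905343, plus strand) encodes pantetheinase, an anchored enzyme that frees cysteamine and pantothenate from pantetheine. Its level was 444.3, 377.8, 363.3 and 428.9 CPM in wild type, 498.2, 746.7, 572.8 and 754.7 in Ttf1 knockout libraries and 742.2, 584.7, 676.0 and 526.5 in Zfp622 knockout libraries. Again no knockout library overlapped with wild type, although the knockout libraries were spread more widely. Vnn1 rose by 0.69 (SE 0.14, adjusted p = 0.00195) and 0.63 (SE 0.14, adjusted p = 0.00526); without the wild-type libraries that carry a second index number the Zfp622 knockout call was just lost (adjusted p = 0.0557).

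The other secreted or anchored members did not pass in either knockout. Smpdl3a, a phosphodiesterase of the acid sphingomyelinase family, was one of the most abundant members and reached 85.0% and 88.1% of its wild-type mean of 204.3 ± 12 CPM in the Ttf1 and Zfp622 knockouts. Nppb, the precursor of brain natriuretic peptide, varied within each group, with 39.8 ± 9.66 CPM in wild type, 30.7 ± 12.7 in the Ttf1 knockout and 31.0 ± 8.07 in the Zfp622 knockout. Pnliprp2, a lipase related to pancreatic lipase, was at 28.3 ± 11.1, 27.1 ± 10.7 and 23.8 ± 7.13 CPM. The groups overlapped for all 3 genes.

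**Figure D3:**
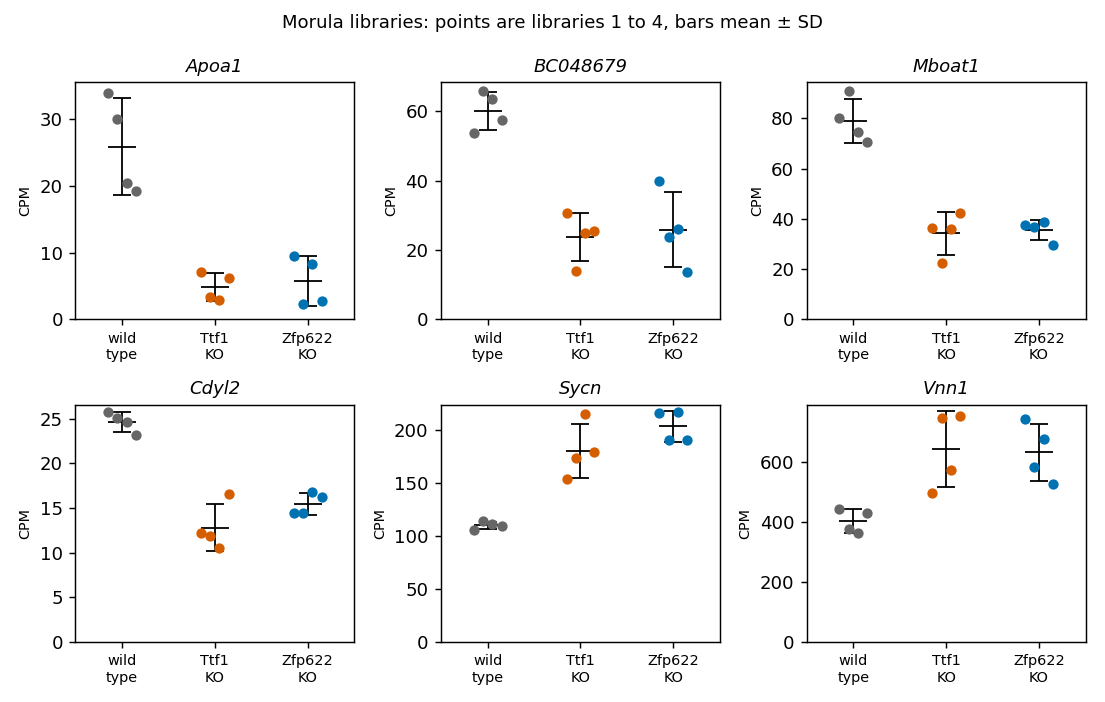
CPM in each morula library (vertical axes, from 0) of 6 members in wild type, Ttf1 knockout and Zfp622 knockout, with points for libraries 1 to 4 and bars for the mean and SD. Apoa1, BC048679, Mboat1 and Cdyl2 were lower and Sycn and Vnn1 higher in all 8 knockout libraries than in all 4 wild-type libraries.

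Among 7 metabolic and lipid-modifying enzymes, 3 fell in the Ttf1 knockout, 2 in the Zfp622 knockout and none rose, near the 35.5% and 28.3% lower among coding genes at 20 CPM or more. Mboat1 (ENSMUSG00000038732, chromosome 13, 30136489 to 30246717, plus strand), which attaches fatty acids to lysophospholipids, stood at 80.1, 90.9, 74.7 and 70.7 CPM in wild type, 36.2, 22.3, 36.1 and 42.4 in Ttf1 knockout libraries and 37.5, 36.7, 38.6 and 29.7 in Zfp622 knockout libraries. The knockout libraries lay at about the same level in both groups and far under wild type. Mboat1 fell by 1.19 (SE 0.15, adjusted p = 2.47e-05) and fell by 1.17 (SE 0.15, adjusted p = 7.22e-05). Htatip2, the short-chain dehydrogenase relative also called TIP30, fell by 0.60 in the Ttf1 knockout (30.2 ± 2.11 against 46.2 ± 4.85 CPM, adjusted p = 0.000451) and by 0.40 in the Zfp622 knockout (35.5 ± 5.43, adjusted p = 0.0112). Zdhhc2, a palmitoyltransferase, fell by 0.59 in the Ttf1 knockout (13.1 ± 2.58 against 20.1 ± 2.97 CPM, adjusted p = 0.0038), and its value in the Zfp622 knockout was -0.35 (16 ± 1.69 CPM, adjusted p = 0.079). Zdhhc2 overlaps Cnot7 on the opposite strand, a more abundant gene (125.8 CPM in wild-type morula) whose reads in the overlap the counting cannot separate.

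Ass1, the argininosuccinate synthase of the urea cycle and of arginine synthesis, varied within each group, most in the knockouts. It stood at 104.6, 132.1, 108.5 and 105.1 CPM in wild type, 185.0, 116.4, 96.9 and 109.7 in Ttf1 knockout libraries and 195.2, 136.9, 121.3 and 201.7 in Zfp622 knockout libraries. The groups overlapped and neither knockout passed (log2 fold change 0.19, adjusted p = 0.51, and 0.53, adjusted p = 0.0787). Got1l1, a relative of the aspartate aminotransferase Got1, was at 25.1 ± 4.42 and 28.8 ± 3.73 CPM in the Ttf1 and Zfp622 knockouts against 27.6 ± 4.49 in wild type. Cmbl, the carboxymethylenebutenolidase homologue, was at 18.8 ± 3.37 and 23.0 ± 4.42 against 20.2 ± 2.82, and Mthfsd, a protein with a methenyltetrahydrofolate synthetase domain, at 31.6 ± 6.16 and 38.5 ± 4.01 against 37.2 ± 5.21. None of these 3 passed in either knockout.

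BC048679 (ENSMUSG00000061877, chromosome 7, 81494275 to 81498281, minus strand), a coding gene with no role given in the files, was at 53.7, 65.8, 63.5 and 57.4 CPM in wild type, 30.6, 14.1, 25 and 25.5 in Ttf1 knockout libraries and 40.0, 23.8, 26.2 and 13.7 in Zfp622 knockout libraries. No knockout library reached the lowest wild-type library, but the lowest and highest knockout libraries were well apart. BC048679 fell by 1.32 (SE 0.28, adjusted p = 0.00328) and fell by 1.23 (SE 0.28, adjusted p = 0.00697). The second call was lost without the wild-type libraries that carry a second index number (adjusted p = 0.0552). Olfr1459, an olfactory receptor gene, did not pass (42.5 ± 14.1 and 38.8 ± 10.0 CPM in the Ttf1 and Zfp622 knockouts against 33.0 ± 10.2 in wild type). Both clone genes among the members, 1500009L16Rik and 5430403G16Rik, which the naming rule leaves out and which are named here to account for the whole set, fell in the Ttf1 knockout (-0.50 and -0.42, adjusted p = 0.0113 and 0.0254) and did not pass in the Zfp622 knockout (-0.32 and -0.26, adjusted p = 0.098 and 0.165). The call of 5430403G16Rik was lost in 7 of 21 alternatives (adjusted p up to 0.121).

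Promoters of 25 of the 34 genes were found in RefSeq (build GRCm38.p6, 33 promoters, each 250 bases before and 50 after a start). The 4 shown belong to genes whose 8 knockout libraries all lay on one side of wild type, 3 lower and 1 higher; capitals mark the motif matches listed after them, on either strand, and the sequence reads 5′ to 3′ on the gene's strand. They lie at chr9:46228380-46228679 (plus, Apoa1), chr13:30136240-30136539 (plus, Mboat1), chr7:81498281-81498580 (minus, BC048679) and chr7:28540635-28540934 (plus, Sycn).
Apoa1: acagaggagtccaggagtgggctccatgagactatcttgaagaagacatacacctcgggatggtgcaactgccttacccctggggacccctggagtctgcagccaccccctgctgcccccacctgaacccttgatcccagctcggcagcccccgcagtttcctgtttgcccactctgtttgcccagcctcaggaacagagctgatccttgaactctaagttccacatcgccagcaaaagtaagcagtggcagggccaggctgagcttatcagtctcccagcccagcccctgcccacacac
Mboat1: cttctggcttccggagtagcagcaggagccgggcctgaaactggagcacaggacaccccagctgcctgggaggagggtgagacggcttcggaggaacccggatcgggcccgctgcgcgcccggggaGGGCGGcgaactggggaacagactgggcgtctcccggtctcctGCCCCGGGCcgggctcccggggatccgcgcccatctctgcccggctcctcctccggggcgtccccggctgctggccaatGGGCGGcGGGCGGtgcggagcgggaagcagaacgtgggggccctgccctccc
BC048679: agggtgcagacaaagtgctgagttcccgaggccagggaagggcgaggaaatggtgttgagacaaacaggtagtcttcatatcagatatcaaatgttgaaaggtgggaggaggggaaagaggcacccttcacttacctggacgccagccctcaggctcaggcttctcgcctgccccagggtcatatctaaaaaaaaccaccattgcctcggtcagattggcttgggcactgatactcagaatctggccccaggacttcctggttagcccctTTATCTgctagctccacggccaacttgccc
Sycn: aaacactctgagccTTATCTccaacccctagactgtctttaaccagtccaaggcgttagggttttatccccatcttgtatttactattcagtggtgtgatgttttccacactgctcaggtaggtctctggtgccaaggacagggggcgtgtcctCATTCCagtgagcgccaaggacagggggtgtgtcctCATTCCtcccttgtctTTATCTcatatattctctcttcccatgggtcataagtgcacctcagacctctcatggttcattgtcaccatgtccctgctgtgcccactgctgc

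Short motifs were counted on both strands in the 33 promoters of members and in all 32851 promoters of the table, as letters and not as bound sites. The GATA motif AGATAA, which is present in Sycn 2 times and in BC048679 1 time, was in 7 of the 33 (21.2%) against 11.2% of all. The TEAD motif CATTCC, present in Sycn 2 times, was in 15.2% against 14.7%, the GC box GGGCGG in 36.4% against 35.7%, the TFAP2 motif GCCNNNGGC in 12.1% against 16.6%, and TATAAA in 15.2% against 13.6%. TAATCC, read by OTX factors, was in 3.0% against 7.1%, and TCAAGGTCA, read by NR5A and ESRR factors, in 0.0% against 0.4%. The window of Mboat1 held GC boxes and a TFAP2 match, and that of Apoa1 none of these 7 motifs. Promoters of 1 gene can overlap, so these shares are descriptions.

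Of 4 proteins of the S100 family and of signalling, the neighbours S100a11 and S100a10 on chromosome 3 differed in direction in the Zfp622 knockout. These 2 genes lie within 50 kb of each other on the same strand. S100a11, a small calcium-binding protein, was at 73.1, 79.7, 93.1 and 76.6 CPM in wild type, 66.9, 57.6, 62.3 and 66.7 in Ttf1 knockout libraries and 60.1, 47.4, 65.8 and 65.9 in Zfp622 knockout libraries. Every knockout library was under the lowest wild-type library. S100a11 fell by 0.33 (SE 0.10, adjusted p = 0.0178) and fell by 0.45 (SE 0.10, adjusted p = 0.00413), and both calls were lost without the wild-type libraries that carry a second index number. S100a10, the partner of annexin A2, was at 22.1, 29.8, 27.7 and 22.9 CPM in wild type, 43.2, 27.4, 26.5 and 37.6 in Ttf1 knockout libraries and 31.7, 27.4, 42.8 and 40.7 in Zfp622 knockout libraries. The groups overlapped. S100a10 rose in the Zfp622 knockout (0.46, SE 0.16, adjusted p = 0.0438), a call lost in 11 of 21 alternatives, and did not pass in the Ttf1 knockout (0.41, adjusted p = 0.0573).

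Camk2d, the delta chain of calcium/calmodulin-dependent kinase II, was at 35.8, 38.6, 32.1 and 32.5 CPM in wild type, 23.8, 8.25, 23.3 and 22.4 in Ttf1 knockout libraries and 27.9, 22.5, 24.2 and 13.6 in Zfp622 knockout libraries. All knockout libraries were under wild type, and Ttf1 knockout library 2 and Zfp622 knockout library 4 were far under the rest of their groups. Camk2d fell by 0.82 in the Ttf1 knockout (SE 0.28, adjusted p = 0.038), a call lost when any of the 4 wild-type libraries was left out, and was at -0.67 in the Zfp622 knockout (adjusted p = 0.0969). Ppp2r2c, a regulatory subunit of protein phosphatase 2A, did not pass (19.6 ± 5.5 and 25.3 ± 5.91 CPM against 22.2 ± 0.567).

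Of 4 nuclear proteins, Cdyl2, a chromodomain protein, was at 25.8, 25.1, 24.6 and 23.2 CPM in wild type, 12.2, 11.9, 10.5 and 16.6 in Ttf1 knockout libraries and 14.4, 14.4, 16.8 and 16.2 in Zfp622 knockout libraries. The groups did not overlap with wild type. Cdyl2 fell by 0.93 (SE 0.13, adjusted p = 4.59e-05) and fell by 0.69 (SE 0.13, adjusted p = 0.000863), and kept both calls in all 21 alternatives. Otx2, a homeobox factor of the early embryo and later of the forebrain, stood at 22.6, 20.5, 22.3 and 20.1 CPM in wild type, 24.2, 16.6, 11.1 and 8.71 in Ttf1 knockout libraries and 18.8, 16.6, 13.6 and 10.6 in Zfp622 knockout libraries. All Zfp622 knockout libraries were under wild type and Ttf1 knockout library 1 was above it, and neither comparison passed (-0.48, adjusted p = 0.145, and -0.54, adjusted p = 0.127).

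Rhox5, an X-linked homeobox gene, varied most: 47.6, 16.5, 27.6 and 48.1 CPM in wild type, 7.24, 28.5, 23.0 and 12.5 in Ttf1 knockout libraries and 11.2, 29.1, 13.4 and 2.36 in Zfp622 knockout libraries. Its groups overlapped, and the interval of the log2 fold change was -2.44 to 0.54 in the Ttf1 knockout and -2.86 to 0.18 in the Zfp622 knockout (95%), which bounds the change only loosely. Hist1h2ae, a histone H2A gene of a family of near-identical copies whose reads the counting may have split or dropped, fell in the Zfp622 knockout (19.3 ± 3.61 against 28.3 ± 4.16 CPM, log2 fold change -0.57, adjusted p = 0.0429), a call lost in 9 of 21 alternatives, and did not pass in the Ttf1 knockout (20.2, 13.2, 23.3 and 28.1 CPM, -0.39, adjusted p = 0.124).

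The knockouts were also compared with each other, a contrast in which no library had served to choose the members. None of the 34 genes passed in edgeR, where 0.229% of all 14865 genes did (19 higher and 15 lower in the Ttf1 knockout). At an unadjusted p under 0.05, 1 was higher in the Ttf1 knockout, Enpep (0.64, 95% interval 0.19 to 1.10, adjusted p = 0.213), and 2 were lower, Tmem144 (-0.37, interval -0.58 to -0.17, adjusted p = 0.106) and Plet1 (-0.48, interval -0.79 to -0.18, adjusted p = 0.161). DESeq2 called 1, Tmem144 (-0.37, adjusted p = 0.0181). Tmem144 was the single member whose 4 Ttf1 knockout libraries did not overlap with the 4 Zfp622 knockout libraries, where 3.62% of all genes did so in that direction. Without a filter on low counts all 3 passed in edgeR (adjusted p = 0.000369 for Enpep, 0.042 for Tmem144 and 0.00283 for Plet1). Their fold changes there, 0.63, -0.38 and -0.49, were close to those with the filter. Without Ttf1 knockout library 1 Plet1 passed (-0.63, adjusted p = 0.0409). The share of all genes that passed in these alternatives and in DESeq2 is not given here, so these calls are not read as a difference between the knockouts. For Mboat1, BC048679 and Apoa1, with falls of over 1 on the log2 scale in both knockouts, the interval of the difference between knockouts was -0.34 to 0.29 for Mboat1, -0.70 to 0.53 for BC048679 and -1.22 to 0.84 for Apoa1. These intervals bound the difference and do not show that the knockouts act alike.

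**Figure D4:**
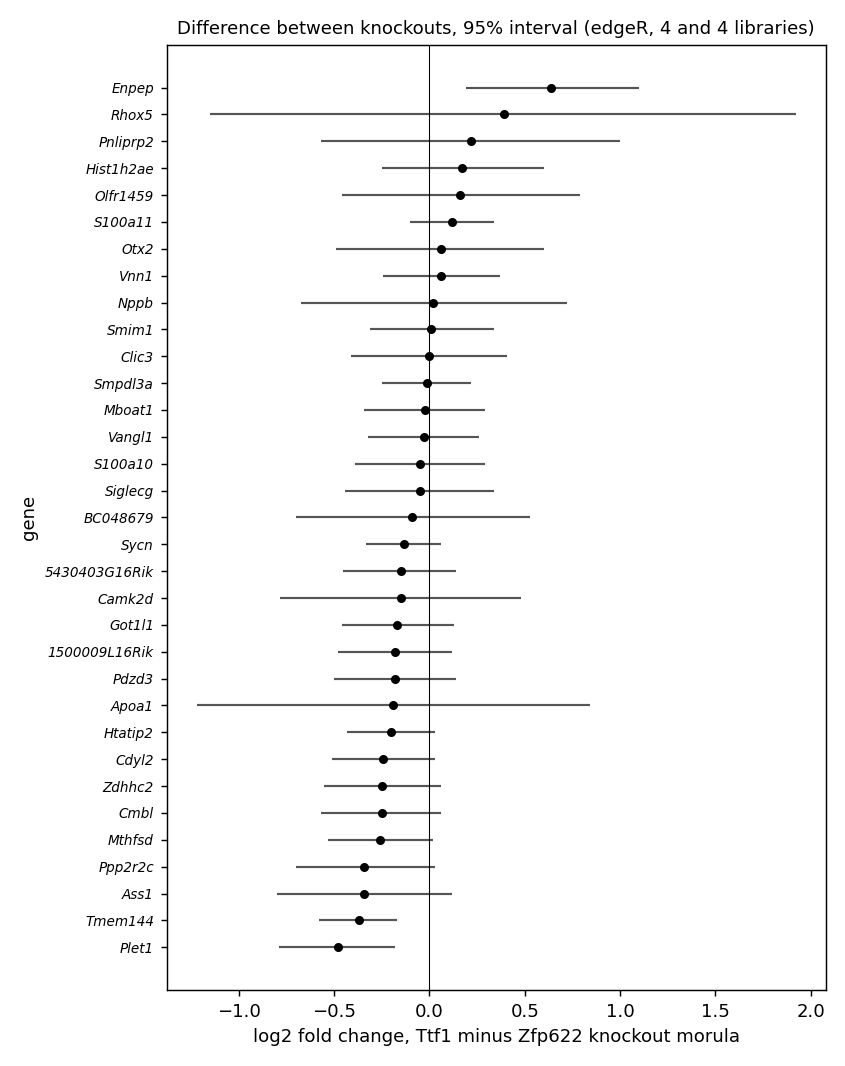
Log2 fold change of Ttf1 knockout over Zfp622 knockout morula (horizontal axis) for 33 of the 34 genes (vertical axis), with points for the edgeR estimate and lines for the unadjusted 95% interval, 4 libraries a group. The intervals of Enpep, Tmem144 and Plet1 leave out 0, none of the 34 passed after adjustment, and that of Rhox5, -1.15 to 1.92, is the widest.

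By the defining levels themselves, 19 of 34 genes had a mean under 0.5 CPM at L2C and of 20 CPM or more at morula in the Ttf1 knockout's own libraries, and 21 of 34 in the Zfp622 knockout's. In the Ttf1 knockout 10 stayed under 20 CPM at morula and 9 were at 0.5 CPM or more at L2C, 4 of them both. In the Zfp622 knockout the counts were 8, 6 and 1. Members just inside a level in wild type need only a small difference to cross it, and the largest L2C means were small: 0.883 CPM for Olfr1459 in the Ttf1 knockout, from library values of 0.470, 0.504, 2.29 and 0.267, and 1.02 for Smpdl3a in the Zfp622 knockout. Relative to wild type, 4 genes were under 50%, 13 from 50% to 75%, 11 from 75% to 100% and 6 at 100% or more in the Ttf1 knockout, against 5, 6, 12 and 11 in the Zfp622 knockout. The choice of members by their wild-type level favours lower percentages here as well. The members nearest the limits were Zdhhc2, Cmbl and Otx2 at 20.1, 20.2 and 21.4 CPM in wild-type morula, with Mpzl2, Crygs and Dpp4 just outside at 19.5, 19.2 and 18.8. At L2C Cdyl2, Htatip2 and 5430403G16Rik lay just inside at 0.486, 0.484 and 0.451 CPM, and Pik3r6, P2ry14 and Stard10 just outside at 0.552, 0.560 and 0.562.

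Knockout libraries of 1 group reached the set's wild-type levels to different degrees. The median of the members, as a percentage of their wild-type means, was 79%, 67.4%, 66.2% and 89.3% in Ttf1 knockout libraries 1 to 4, 88.4%, 79.3%, 87.4% and 67.2% in Zfp622 knockout libraries 1 to 4 and 94.0% or more in the wild-type libraries. Zfp622 knockout library 4 was the lowest of its group for 21 of the 34 genes, Ttf1 knockout library 2 for 12 and Ttf1 knockout library 3 for 16. In single libraries 21 to 29 genes reached 20 CPM in the Ttf1 knockout and 21 to 28 in the Zfp622 knockout. The wild-type libraries, with 31 to 33, chose the members and set the 100%, so their values are fixed by the choice and nothing is read from the distance to them.

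Some members have close neighbours of the same gene family, and those given here were picked out with the values known because they were at or near 0 at wild-type morula. Other such neighbours were on, as with S100a10 beside S100a11. Next to Vnn1, Vnn3 gave 1 count over the 4 wild-type morula libraries. Nppa, the neighbour of Nppb, gave 0 counts. Apoc3 and Apoa4, which lie next to Apoa1 in the apolipoprotein cluster of chromosome 9, gave 1 and 3 counts, and Rhox6, next to Rhox5, gave 9. Pnliprp1, next to Pnliprp2, gave 1 count, and Olfr1457 and Olfr1458, near Olfr1459, gave 0 each. Of the 34 members 6 lie on chromosome 3, the most on any chromosome, which holds 1003 of the 21974 protein-coding genes. These 6 include the neighbours S100a10 and S100a11, and an excess on this chromosome was not tested.

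Lists of genes with related roles, members included, held genes that passed the test in both directions, to be read against the 21.3% higher and 17.9% lower of all genes in the Ttf1 knockout and the 15.6% and 13.5% in the Zfp622 knockout. Of 46 tested genes of junctions and adhesion 11 were higher and 9 lower in the Ttf1 knockout and 8 higher and 10 lower in the Zfp622 knockout (median log2 fold changes 0.02 and -0.06). Of 43 lineage transcription factors, which include Otx2, 7 and 5 were higher and 14 and 11 lower (medians -0.16 and -0.12). Of 42 genes of endocytosis, lipoproteins and lysosome, which include Apoa1, 9 and 6 were higher and 13 and 10 lower (medians -0.01 and -0.05), and of 46 transporters and channels, which include Clic3, 5 and 4 were higher and 12 and 12 lower (medians -0.03 and -0.06). Of 36 genes of keratins, actin and epithelial shape, which include S100a10 and S100a11, 6 and 6 were higher and 7 and 7 lower. Of 66 metabolic and redox enzymes, which include Ass1, 17 and 13 were higher and 21 and 15 lower, and of 46 pluripotency and germ-cell genes, which include Rhox5, 13 and 9 were higher and 12 and 9 lower. Of 59 ligands, receptors and prostaglandin enzymes, with no member among them, 16 and 13 were higher and 7 and 7 lower. Targets of p53 held no member either: of 49, 35 and 39 were higher and 3 and 1 lower (medians 1.12 and 1.05).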

How the data were processed

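Messenger RNA of 24 libraries (6 groups of 4, each a pool of 10 embryos) was sequenced from both ends with reads of 150 bases. The deposited values are whole-number counts of read pairs per gene: per the submitters' processing notes reads were aligned with HISAT2 2.2.1, and per the file headers featureCounts 2.0.1 assigned them to exons of the GRCm38 annotation of Ensembl release 99, without a strand option and without reads that map to several places. Symbols and gene types were matched for 55230 of 55471 identifiers with GENCODE M21, and 54937 genes had the same coordinates there. Groups were taken from the sample titles, since the genotype labels of 7 Zfp622 libraries name another gene and count upward. The strain labels also count upward.

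CPM were computed from the deposited counts and the total of each file. Morula libraries (12) were fitted for the 3 comparisons between genotypes and all 24 for the stage comparison within each knockout, with edgeR 4.0.16 in R 4.3.3 (filterByExpr with a minimum count of 10, TMM, robust glmQLFit, glmQLFTest), and a gene passed at an adjusted p (Benjamini-Hochberg, over all genes tested) no higher than 0.05. The procedure was tested on simulated data. Alternatives were DESeq2 1.42.0, its size factors, total counts, no filter, no robust fit, other sets of libraries, a replicate block, each library left out, a log2 fold change of at least 1 and other levels for the choice of members; the choice without the wild-type libraries that carry a second index number was added after results were seen.

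Members and gene lists were chosen with earlier results of these data known. Genes are named where they have the largest changes without overlap between libraries (8 falls and 6 rises per knockout), the 8 highest wild-type levels per kb, a place in a list, or a place next to a limit; the other members were named after their values were seen. The values of 1 of the 34 members are not reported here; it is in the counts.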

Additional observations from a re-analysis of the deposited data

Results flagged for a closer look

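Among 102 sets of 4 morula libraries (34 genes in 3 groups), 6 held a library whose gap to the nearest other was large for the range of the set (Dixon's criterion at 95%, which chance meets in about 1 of 20 sets). Ass1 was at 132.1 CPM in wild-type library 2, with the other 3 at 104.6 to 108.5, and Pnliprp2 was at 44.9 CPM in the same library, with the others at 22 to 23.7. Camk2d was at 8.25 CPM in Ttf1 knockout library 2, with the others at 22.4 to 23.8. Ppp2r2c was at 27.7 CPM in Ttf1 knockout library 4, with the others at 16.2 to 17.8. Smim1 was at 46.4 CPM in Zfp622 knockout library 1, with the others at 29.2 to 31.4. Cmbl was at 16.4 CPM in Zfp622 knockout library 4, with the others at 24.7 to 25.9. Of these 6 genes, Camk2d alone passed a test against wild type.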

How the results depend on the processing

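The rise of all 34 genes from L2C to morula in each knockout was found under every alternative run for it. Of 31 calls of single genes against wild type, 18 were kept in all 21 alternatives, 13 were lost in at least 1, and none changed sign. With a log2 fold change required to be 1 or more in size, 4 members were lower and 0 higher in each knockout. Counts under this threshold and under other fits are given without the share of all genes at the same setting. They show only how the main counts moved. The fit on all 24 libraries gave 7 lower in the Zfp622 knockout, and without the wild-type libraries that carry a second index number it gave 6 lower and 1 higher there. Leaving out 1 library gave 12 to 19 lower and 2 to 3 higher in the Ttf1 knockout, 8 to 14 lower and 2 to 4 higher in the Zfp622 knockout, and 0 to 1 lower and 0 higher between the knockouts. Between the knockouts DESeq2 gave 1 lower, and the fit without a filter gave 1 higher and 2 lower. Other levels in the choice changed the number of members and with it the counts. These use the main fit, where 17.9% of all genes were lower and 21.3% higher in the Ttf1 knockout. In the Zfp622 knockout these shares were 13.5% and 15.6%. Among coding genes at 20 CPM or more in wild-type morula, 35.5% were lower in the Ttf1 and 28.3% in the Zfp622 knockout. The shares of coding genes at 10 or at 40 CPM or more are not given, so no excess is read from the counts that follow. These counts cover some directions and knockouts only. Under 0.25 CPM at L2C (18 members) 9 were lower in the Ttf1 and 4 in the Zfp622 knockout. Under 1 CPM (64 members) 36 and 26 were lower and 5 and 5 higher. At 10 CPM or more at morula (69 members) 26 were lower and 12 higher in the Ttf1 knockout and 11 higher in the Zfp622 knockout. At 40 CPM or more (14 members) 10 were lower in the Ttf1 and 6 in the Zfp622 knockout, and on TMM-scaled levels (50 members) 17. With levels of under 1 and 10 or more in the knockout's own libraries, 33 genes met them in the Ttf1 and 32 in the Zfp622 knockout, and leaving out 1 library at the original levels gave 17 to 20 and 20 to 22. The cause of these changes was not tested where the number of members stayed the same. Replicate numbers did not pair the libraries (correlations of deviations between same-numbered morula libraries from -0.125 to 0.092), and with the replicate block 15 members were lower and 2 higher in the Ttf1 knockout, 10 and 2 in the Zfp622 knockout, 0 and 0 between them, and 34 of 34 higher from L2C to morula in each. The 4 libraries a group limit small differences, as for Rhox5.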

Other observations

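Genes that met the levels of the set in a knockout but not in wild type were counted too, and they are chosen by these values and carry no test. In the Ttf1 knockout 12 protein-coding genes had a mean under 0.5 CPM at L2C and of 20 CPM or more at morula while wild-type morula stayed under 20, and in the Zfp622 knockout 14 did. Phlda3, a p53-induced inhibitor of AKT, was at 4.16 ± 1.07 CPM in wild-type morula, 30.8 ± 5.97 in the Ttf1 knockout and 26.1 ± 11.2 in the Zfp622 knockout. Anxa8, an annexin, was at 7.26 ± 0.819, 31.1 ± 4.97 and 38.9 ± 13.8 CPM, and S100a6, a small calcium-binding protein, at 6.92 ± 1.83, 30.4 ± 8.99 and 30.2 ± 6.51. Cryab, a small heat shock protein, was at 6.33 ± 1.44, 26.4 ± 12.7 and 24.3 ± 10.9 CPM. Ephx1, the microsomal epoxide hydrolase, was at 10.6 ± 1.33, 23.5 ± 7.44 and 22.2 ± 2.45, and Plod2, a lysyl hydroxylase of collagen, at 13.4 ± 3.02, 26.4 ± 7.63 and 27.2 ± 11.6.

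Another 5 genes met both levels in wild type without being protein-coding. The pseudogene Gm5424 was at 26.5 ± 2.39 CPM in wild-type morula, 39.2 ± 17.7 in the Ttf1 knockout and 44.1 ± 2.38 in the Zfp622 knockout. It is a processed copy of another gene, from which short reads are hard to tell apart. Gm48941 was at 36.2 ± 2.47, 22.2 ± 1.22 and 25.9 ± 3.06 CPM, Eprn at 76.9 ± 8.04, 65.1 ± 8.99 and 66.5 ± 9.29, Gm47805 at 20.3 ± 1.14, 15.5 ± 2.13 and 17.9 ± 4.02, and Gm49089 at 387.1 ± 77.6, 271.3 ± 60.6 and 267.0 ± 52.4.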
